A study of Mus musculus with 6 samples.

Results

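The change from stem cell to early neural cell was followed in mouse embryonic stem cells infected with a lentivirus that carried a control short hairpin RNA (shRNA). The array of these cells at day 4 was set against the array at day 0. Members were chosen by the array titles and by annotation: these 2 arrays of the 6 in the series, and all 23521 of 34351 probe sets that carried exactly 1 gene symbol, which gave 22180 genes. Day 0 cells grew on gelatin in medium with serum and leukemia inhibitory factor (LIF), and for neural differentiation the cells were re-aggregated in low-adhesion wells in medium with KSR. The other 4 arrays hold cells with Chd4 or Mbd3 shRNA at the same days. All 6 arrays, those of day 4 included, carry the cell type label ESC, and the genotype of the cells used here is given as control. Whether a sample was 1 culture or a pool, and whether infected cells were a clone, is not stated in the labels.

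Total RNA was read on Mouse Gene 2.0 ST arrays, 1 array for each group. No difference below therefore has a replicate, a standard error or a test, and precision is limited by having so few arrays. Values are the deposited intensities on a linear scale. The median intensity over all probe sets was 41.3 at day 0 and 39.6 at day 4 and lay between 39.6 and 41.4 over the 6 arrays. Where the dimmer of both values lay under 41.4, the fold is given as "at least", against 41.4. Levels of different genes are not compared, since each probe set has its own brightness. In bulk RNA, fewer cells of a type and less RNA per cell cannot be told apart.

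As background, mouse embryonic stem cells in LIF and serum resemble the inner cell mass. A network around Oct4 (the product of Pou5f1), Sox2 and Nanog, supported by LIF signalling through STAT3, holds them in the naive state. When LIF is withdrawn and cells aggregate in suspension, many become neuroepithelium, a polarized sheet of Sox1-positive progenitors. Retinoic acid, Hedgehog, WNT, FGF and BMP signals then give these progenitors a position along and across the neural tube, and Notch signalling sets when they leave the cycle as neurons.

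A gene entered the comparison where the brighter of its 2 values reached its own array's median, and 13831 genes did. Of these, 1125 genes (8.13%) were at least 2-fold higher at day 4, and 650 genes (4.70%) were at least 2-fold lower. For scale, 12.8% of genes were past 2-fold in either direction between these days, against 1.26% between Chd4-knockdown and control cells at day 0 0.680% between Mbd3-knockdown and control cells at day 0, and 1.05% between the knockdown lines at day 0. The median log2 difference, day 4 minus day 0, was -0.04 over all 22180 genes. In what follows, a gene counts as higher or lower when it entered and was past 2-fold, and each list is given by these counts and by the median over all its measured members, dim ones included. Counts out of all measured members have as background the same calls over all 22180 genes, 5.07% higher and 2.93% lower. The lists were chosen with earlier results of these data known, so the order of their medians is a description and not an independent result.

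**Figure D1:**
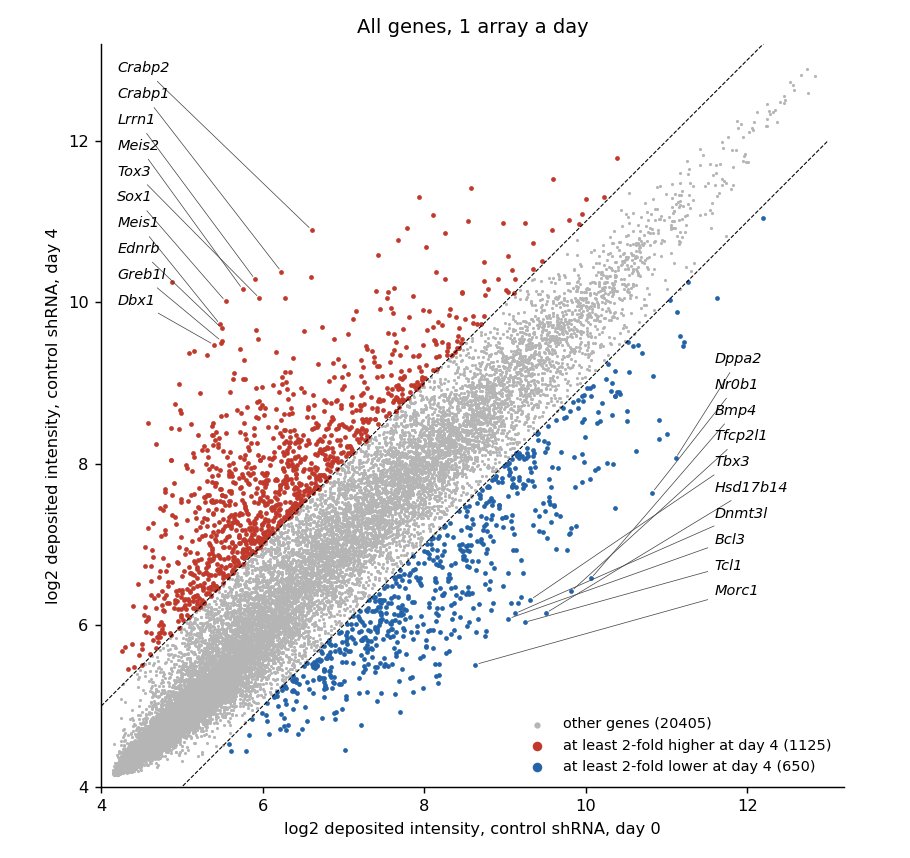
Log2 deposited intensity at day 0 (x axis) against day 4 (y axis) in control shRNA cells, 1 point a gene. Dashed lines mark 2-fold. Red marks the 1125 higher genes and blue the 650 lower ones, and the 10 largest differences in each direction among genes above 41.4 on both days are named; Sox1 and Meis2 lie far above the diagonal, Bmp4 and Tfcp2l1 far below it.

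Among the 20 highest genes of the ranking on both bright days were several that no list here holds. Tox3, which encodes a nuclear HMG-box protein of neurons, read 62.2 at day 0 and 1061 at day 4, 17.1-fold higher. Zfhx4, a zinc-finger homeobox gene of the developing brain, read 44.7 at day 0 and 720.5 at day 4, 16.1-fold higher. Rfx4, a winged-helix factor needed for neural tube patterning, read 54.3 at day 0 and 625 at day 4, 11.5-fold higher, and Greb1l and Igdcc3 were 16.3-fold and 13.1-fold higher. Ildr2, dim at day 0 and so ranked apart from these 20, read 39.7 at day 0 and 650.0 at day 4. Its other probe set read 53.7 and 58.1. Among the 20 lowest, the steroid dehydrogenase gene Hsd17b14 read 728 at day 0 and 71.1 at day 4, 10.2-fold lower. Irak3, an inhibitor of Toll-like receptor signalling, read 432 at day 0 and 58.2 at day 4, and the adhesion gene Ceacam1 588 at day 0 and 81.6 at day 4. Hspb1, a small heat shock protein, read 434 at day 0 and 61.1 at day 4, while its other probe set read 40.9 and 29.3. Myof, a membrane-repair protein, read 291 at day 0 and 41.9 at day 4.

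Naive pluripotency genes had the lowest median of the 54 lists, a rank that depends on how the lists were chosen. Of 31 measured, 24 were lower and 0 higher, with a list median of -1.87. Tfcp2l1, a transcription factor that holds the naive state, read 904 at day 0 and 85.7 at day 4, 10.6-fold lower. Klf5, a zinc-finger factor of the inner cell mass, read 1313 at day 0 and 175 at day 4. Zfp42, also called Rex1, the marker by which naive cells are most often sorted, read 2050.4 at day 0 and 330.0 at day 4, 6.21-fold lower. The orphan receptors Nr5a2 and Esrrb were 5.61-fold and 3.07-fold lower. Gli2, a Hedgehog effector that the list also holds, read 348 at day 0 and 431 at day 4, the largest difference above 0 in the list.

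Core pluripotency genes include the factors that stem cells need to renew. Of 20 measured, 12 were lower and 1 higher (median -1.40). Nanog read 2305 at day 0 and 768 at day 4, 3.001-fold lower. Pou5f1 read 192 at day 0 and 77.6 at day 4, 2.48-fold lower. Utf1, a chromatin protein of stem cells, was 3.35-fold lower, and the paired SAP-domain genes Dppa4 and Dppa2 were 6.11-fold and 8.25-fold lower. Sox2, which stem cells and neural progenitors share, read 1459 at day 0 and 1416 at day 4, and the RNA-binding gene Lin28a read 551 at day 0 and 639 at day 4. Both lay within 2-fold. The higher member was the Lin28a paralog Lin28b, with 62.3 at day 0 and 219 at day 4, 3.52-fold higher.

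The Nanog promoter is shown because its composite site for Oct4 and Sox2 is a textbook link between the core genes. The Sox letters CATTGT, 1 base of any kind and the Oct letters ATGCAAA were searched as 1 motif on both strands in the 250 bases before the start of RefSeq promoters (build GRCm38.p6), where it stood in 2 of 32851. One of these was the Nanog promoter, with 1 match, in capitals, at chr6:122707239-122707488 on the plus strand:

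Nanog: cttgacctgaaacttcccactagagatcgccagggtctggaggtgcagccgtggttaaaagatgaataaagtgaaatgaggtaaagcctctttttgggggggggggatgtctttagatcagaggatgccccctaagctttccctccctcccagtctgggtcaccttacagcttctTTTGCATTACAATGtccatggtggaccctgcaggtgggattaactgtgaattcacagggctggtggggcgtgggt

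The LIF list held receptors, signal transducers and targets. Tfcp2l1, read with the naive genes above, is in it too, so the counts of these lists are not independent. Of 19 measured, 9 were lower and 0 higher (median -0.96). The receptor subunit Lifr read 486 at day 0 and 179 at day 4, while its partner Il6st read 623 at day 0 and 507 at day 4 and the kinase Jak1 306 at day 0 and 315 at day 4. The transcription factor Stat3 was 3.86-fold lower, and its feedback inhibitor Socs3, with 179 at day 0 and 79.2 at day 4, was 2.25-fold lower. Bcl3 read 528 at day 0 and 67.8 at day 4, 7.79-fold lower, and Klf4 405 at day 0 and 67.5 at day 4, 6.002-fold lower.

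Primed pluripotency genes, which mark the epiblast after implantation, were mixed. Of 22 measured, 7 were higher and 5 lower (median 0.64). Fst, which encodes the activin-binding protein follistatin, read 60.2 at day 0 and 809 at day 4, 13.4-fold higher. Cdh2, Sox4 and Sox3, which neural cells use as well, were 7.84-fold, 6.34-fold and 5.12-fold higher. Fgf5, the classic epiblast marker, read 50.5 at day 0 and 82.5 at day 4, within 2-fold. Otx2 with 107 at day 0 and 122 at day 4 and Pou3f1 with 76.9 at day 0 and 120.1 at day 4 were also within 2-fold. Nodal, Etv5, Etv4, Grhl2 and Foxd3 were the lower members, by 2.601-fold for Foxd3 to 3.77-fold for Nodal.

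Neural plate transcription factors were higher in 9 of 18 cases and lower in 0 (median 1.02). Sox1, whose onset defines the neural plate, read 46.5 at day 0 and 1033 at day 4, 22.2-fold higher. The POU factors Pou3f4, Pou3f2 and Pou3f3 were at least 7.199-fold, at least 6.11-fold and 5.76-fold higher. Sox11, a factor of newborn neurons and late progenitors, read 42.4 at day 0 and 218 at day 4, 5.14-fold higher. The Zic genes, zinc-finger factors of the dorsal plate, differed among themselves: Zic1 read 31.8 at day 0 and 81.6 at day 4, Zic5 156 at day 0 and 152 at day 4 and Zic4 34.8 at day 0 and 30.5 at day 4.

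Neural progenitor genes had the highest median of the 54 lists. That rank depends on how the lists were chosen, since this one holds genes from the top of the ranking, such as Meis2, Lrrn1, Meis1 and Ednrb. Of 32 measured, 24 were higher and 0 lower (median 2.59). Fabp7, the radial glia gene for a lipid carrier, read 29.3 at day 0 and 1219 at day 4. The intermediate filament Nes read 71.6 at day 0 and 409 at day 4, 5.71-fold higher, and the RNA-binding gene Msi1 read 139 at day 0 and 890.2 at day 4, 6.39-fold higher. Prom1, which encodes the apical membrane protein CD133, was 7.08-fold higher. Pax6 read 93.8 at day 0 and 382 at day 4, 4.07-fold higher, and Sox9 was 4.25-fold higher. Secreted growth factors were in the list too: Ptn read 35.3 at day 0 and 676 at day 4, and its relative Mdk 242 at day 0 and 649 at day 4. Genes of later radial glia stood lower in order: Slc1a3, a glutamate transporter, read 108 at day 0 and 140.3 at day 4, and Tnc, a matrix protein, 36.5 at day 0 and 30.9 at day 4.

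**Figure D2:**
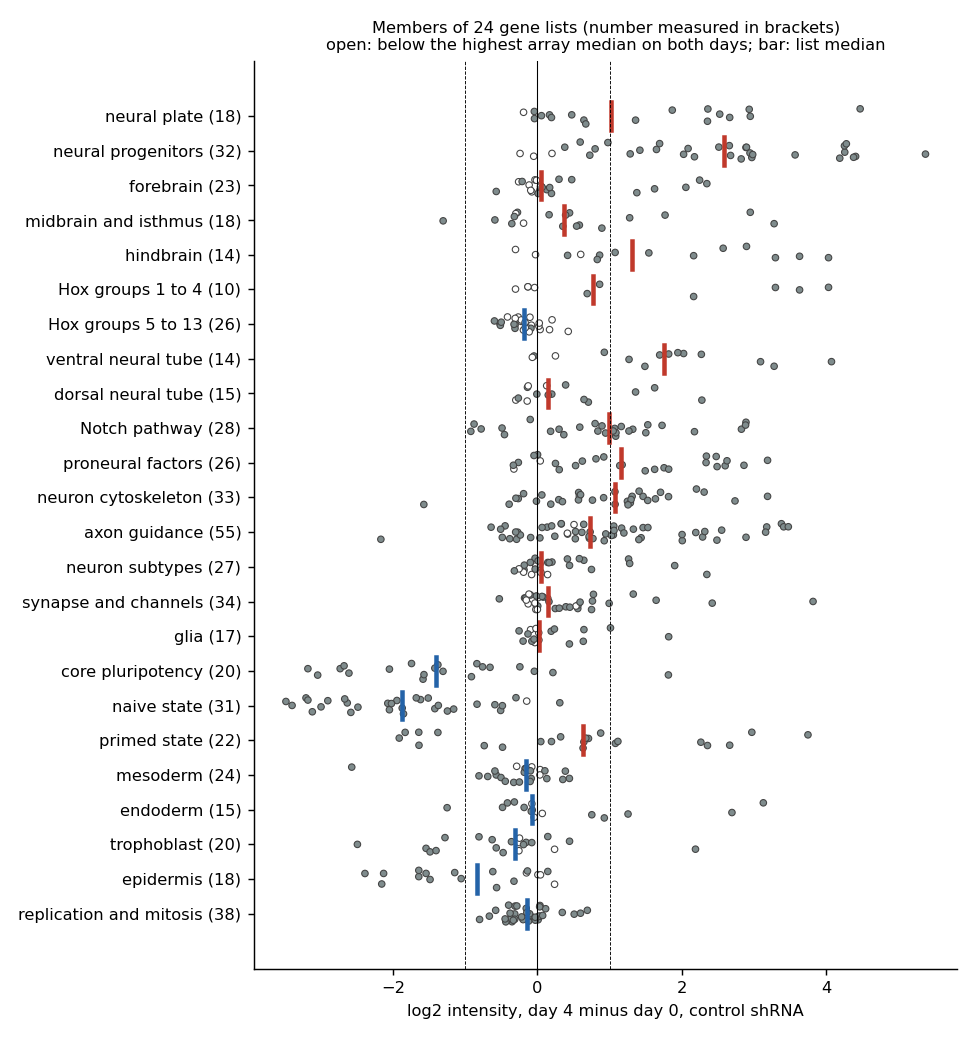
Log2 intensity, day 4 minus day 0, of each measured member of 24 gene lists (1 point a gene) in control shRNA cells; bars are list medians and dashed lines mark 2-fold. Open points are genes under 41.4 on both days. Neural progenitors (median 2.59) lie farthest to the right and naive genes (median -1.87) farthest to the left, while Hox groups 5 to 13 and replication and mitosis genes stay inside the 2-fold lines.

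Regional genes of the neural tube were next read from front to back. In the forebrain list, 5 of 23 genes were higher and 0 lower, but 8 were under 41.4 on both days (median 0.054). The higher ones were Lhx5, Fezf2, Fezf1, Lhx2 and Sp8, factors of the anterior plate, by at least 2.41-fold (Sp8) to at least 3.87-fold (Fezf1). Lhx2 read 72.4 at day 0 and 223 at day 4. The eye-field and anterior genes Six3 and Hesx1 read 32.4 and 32.1 at day 0 and 29.9 and 33.3 at day 4, in that order. Emx2, of the cortex, read 27.5 at day 0 and 26.02 at day 4. In the midbrain and isthmus list, 4 of 18 were higher and 1 lower (median 0.37). Pax2 read 37.4 at day 0 and 90.8 at day 4, while En1 with 29.9 at day 0 and 44.7 at day 4, En2 with 50.7 at day 0 and 41.9 at day 4 and Fgf8, the isthmic organizer signal, with 38.8 at day 0 and 49.5 at day 4 were within 2-fold.

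Of the 3 lists along the front-to-back axis, hindbrain genes had the largest median, 1.31. Of 14 measured, 8 were higher and 0 lower. Egr2, also called Krox20, the factor of rhombomeres 3 and 5, read 54.3 at day 0 and 115 at day 4, 2.11-fold higher. Hox genes give the hindbrain and cord their segment identity, in the order of their clusters. Hoxb1, the marker of rhombomere 4, read 53.9 at day 0 and 530.4 at day 4, 9.84-fold higher. Hoxb2 read 31.1 at day 0 and 509.9 at day 4, at least 12.3-fold higher, and Hoxa2 31.8 at day 0 and 394 at day 4, at least 9.52-fold higher. Hoxb3 was at least 3.895-fold higher. Hoxa3 with 25.999 at day 0 and 47.3 at day 4 and Hoxa4 with 57.3 at day 0 and 92.5 at day 4 stood above their day 0 values by less than 2-fold.

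Hox genes were counted by paralog group. The hindbrain list holds Hox genes too, Hoxb1 and Hoxb2 among them, so its counts and those below are not independent. Of 10 genes measured in paralog groups 1 to 4, 4 were higher and 0 lower. Of 26 in groups 5 to 13, 0 were higher and 0 lower, and 19 were under 41.4 on both days. Within groups 1 to 4 the higher genes belonged to clusters A and B: Hoxd1 read 35.2 at day 0 and 32.2 at day 4, Hoxd3 38.7 at day 0 and 31.4 at day 4 and Hoxc4 24.1 at day 0 and 21.99 at day 4.

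The Hoxb1 promoter is shown because its autoregulatory element binds Pbx-Hox dimers. The letters TGAT, 2 bases of any kind and ATGG, searched as 1 motif on both strands, stood in 198 of 32851 RefSeq promoters (0.603%). The Hoxb1 promoter, chr11:96365508-96365757 on the plus strand of GRCm38.p6, held 1 match, in capitals:

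Hoxb1: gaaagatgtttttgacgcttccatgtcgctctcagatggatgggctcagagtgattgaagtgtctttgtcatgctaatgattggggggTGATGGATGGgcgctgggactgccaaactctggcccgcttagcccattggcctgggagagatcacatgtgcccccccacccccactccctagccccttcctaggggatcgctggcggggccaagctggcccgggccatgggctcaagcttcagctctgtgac

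Genes of the TALE homeodomain family encode the DNA-binding partners of Hox proteins. Of 10 measured, 5 were higher and 0 lower (median 1.12). Meis2 read 53.9 at day 0 and 1145 at day 4 and Meis1 44.4 at day 0 and 848 at day 4, 21.3-fold and 19.09-fold higher. Pbx3 read 63.5 at day 0 and 424 at day 4, 6.68-fold higher, and Pknox2 54.4 at day 0 and 364 at day 4, 6.69-fold higher. Among their relatives, Pknox1 read 144 at day 0 and 116 at day 4 and the corepressor Tgif1 323 at day 0 and 182 at day 4.

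Retinoic acid, which brain and cord read as a posterior signal, is made by Aldh1a enzymes, carried by Crabp proteins, broken down by Cyp26 enzymes and bound by RAR and RXR receptors. Of 18 genes measured, 5 were higher and 1 lower (median 0.12). The carriers Crabp2 and Crabp1 read 97.5 and 75.2 at day 0 and 1905 and 1330.4 at day 4, in that order. Cyp26c1, which clears retinoic acid in the hindbrain and anterior plate, read 31.8 at day 0 and 189 at day 4, whereas Cyp26a1 read 33.4 at day 0 and 36.98 at day 4 and Cyp26b1 54.3 at day 0 and 83.3 at day 4. The synthetic enzymes Aldh1a2 and Aldh1a3 read 48.2 and 31.2 at day 0 and 48.97 and 27.7 at day 4, in that order. Stra6, the cell-surface receptor that takes up retinol, was 2.23-fold higher. Among nuclear receptors, Rarg read 217 at day 0 and 67.3 at day 4, 3.22-fold lower, and Rxra 81.7 at day 0 and 171 at day 4, 2.09-fold higher. Rarb, a direct target of retinoic acid in many cells, read 35.4 at day 0 and 43.5 at day 4.

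**Figure D3:**
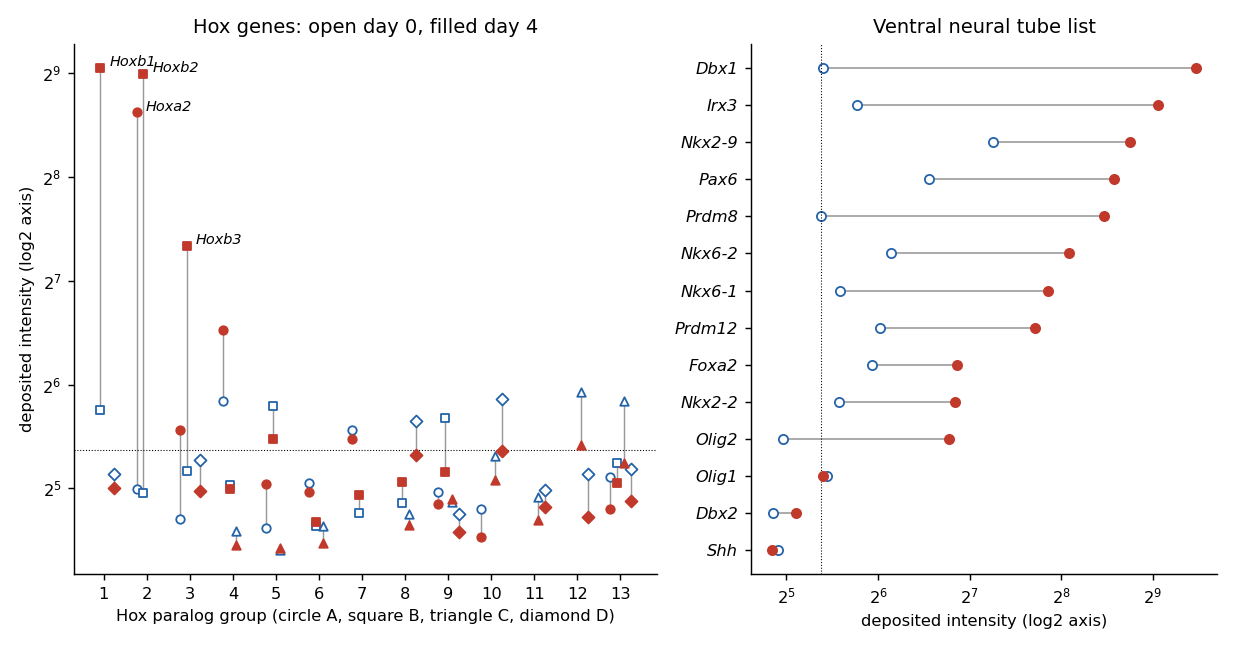
Deposited intensity on a log2 axis at day 0 (open) and day 4 (filled) in control shRNA cells. Left, Hox genes by paralog group; right, the ventral neural tube list. The dotted line is the highest array median, 41.4. Hoxb1, Hoxb2, Hoxa2 and Hoxb3 stand alone above 2-fold among Hox genes, while 10 of 14 ventral genes were past 2-fold and Shh stayed under the line.

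Across the tube, ventral and dorsal genes were read as separate lists. In the ventral list, 10 of 14 were higher and 0 lower (median 1.76). Dbx1, of the V0 interneuron domain in the middle of the tube, read 42.2 at day 0 and 711 at day 4, 16.9-fold higher. Irx3, which sets a boundary with Olig2, read 54.7 at day 0 and 532 at day 4, while its other probe set read 30.4 and 38.2. Prdm8, which encodes a histone methyltransferase-family protein, read 41.4 at day 0 and 353 at day 4. More ventral factors were higher too: Nkx6-1 read 47.9 at day 0 and 231 at day 4, Nkx6-2 70.4 at day 0 and 271 at day 4, and Olig2, of the motor neuron domain, 31.1 at day 0 and 109.6 at day 4. Nkx2-9 and Nkx2-2, next to the floor plate, were 2.81-fold and 2.41-fold higher. Of the floor plate genes, Foxa2 read 61.1 at day 0 and 116 at day 4 and Shh 30.1 at day 0 and 28.7 at day 4. In the dorsal list, 3 of 15 were higher and 0 lower (median 0.15). Pax3 read 48.9 at day 0 and 237 at day 4, 4.85-fold higher, and Olig3 48.7 at day 0 and 150.0 at day 4. Pax7 read 53.1 at day 0 and 86.6 at day 4, Lmx1a, of the roof plate, 33.96 at day 0 and 27.6 at day 4, and Atoh1 41.7 at day 0 and 34.8 at day 4.

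Hedgehog pathway genes held 6 higher members and 0 lower ones of 16 (median 0.45). The ligand Ihh read 108 at day 0 and 81.02 at day 4. The signal transducer Smo read 197 at day 0 and 1157 at day 4, 5.87-fold higher, and the co-receptors Boc and Gas1 were 5.28-fold and 2.44-fold higher. Scube2, which helps release the ligand, was at least 5.58-fold higher. The repressor Gli3 read 164 at day 0 and 677 at day 4 and the negative regulator Sufu 205 at day 0 and 489 at day 4, 4.13-fold and 2.38-fold higher. The targets by which the pathway is usually read lay within 2-fold: Gli1 with 195 at day 0 and 139 at day 4, Ptch1 with 619 at day 0 and 1132 at day 4 and Hhip with 69.3 at day 0 and 68.98 at day 4.

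Notch signalling keeps progenitors undifferentiated: Delta ligands on a neighbour activate the receptor, whose freed part joins RBPJ to switch on Hes and Hey repressors. Of 28 genes measured, 14 were higher and 0 lower (median 1.00). Among ligands, Dll1 read 61.2 at day 0 and 277 at day 4, Dll3 47.8 at day 0 and 138 at day 4 and Jag1 143 at day 0 and 405 at day 4, by 4.52-fold, 2.89-fold and 2.83-fold higher, while Jag2 read 118 at day 0 and 83.9 at day 4. Among receptors, Notch3 was 2.24-fold higher, Notch1 read 146 at day 0 and 255 at day 4, and Notch4 128 at day 0 and 69.9 at day 4. The modifier Lfng read 125 at day 0 and 414 at day 4, 3.31-fold higher, whereas Rfng read 203 at day 0 and 107 at day 4. Rbpj itself read 1071 at day 0 and 624 at day 4. The targets Hes5 and Nrarp read 42.4 and 61.2 at day 0 and 314 and 434 at day 4, in that order, 7.41-fold and 7.096-fold higher, and Hey1 was 2.499-fold higher. Hes5 and Dll1 each had another probe set that hardly differed, at 45.2 and 54.4 for Hes5 and 40.5 and 39.5 for Dll1 at day 0 and day 4.

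The Hes5 promoter is shown because RBPJ switches on Hes genes in Notch signalling. The motif GTGGGAA, on both strands, stood in 1779 of 32851 RefSeq promoters (5.42%). The Hes5 matches lay at -226 to -220 and at -83 to -77 from the start, and so were not adjacent. The Hes5 promoter, chr4:154960673-154960922 on the plus strand of GRCm38.p6, held 2 matches, 1 on each strand, in capitals:

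Hes5: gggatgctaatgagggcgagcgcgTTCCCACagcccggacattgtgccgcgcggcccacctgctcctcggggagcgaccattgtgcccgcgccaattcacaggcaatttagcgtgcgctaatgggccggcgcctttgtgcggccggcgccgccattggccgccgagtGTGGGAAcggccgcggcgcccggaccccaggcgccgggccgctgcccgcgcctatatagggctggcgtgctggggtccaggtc

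Proneural and early neuronal transcription factors were higher in 14 of 26 cases and lower in 0 (median 1.16). Neurog1, which commits progenitors to neurons, read 40.3 at day 0 and 244 at day 4, at least 5.901-fold higher. Neurog2 was 2.26-fold and Neurog3 3.38-fold higher. Genes that act just after them included Nhlh1, with 29.1 at day 0 and 266 at day 4, Neurod4, with 27.6 at day 0 and 201 at day 4, and Ebf2, with 35.4 at day 0 and 197 at day 4. Tcf12, the common dimer partner of these factors, read 193 at day 0 and 973 at day 4, 5.05-fold higher. Some members were not past 2-fold. Neurod1 read 38.9 at day 0 and 31.001 at day 4, Neurod2 43.2 at day 0 and 34.3 at day 4 and Insm1 80.2 at day 0 and 98.9 at day 4.

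Genes of the neuronal cytoskeleton and RNA-binding proteins followed, with 17 of 33 higher and 1 lower (median 1.07). Tubb3, the neuronal tubulin, read 346 at day 0 and 822 at day 4, 2.37-fold higher. Dcx, a microtubule protein of migrating neurons, read 24.95 at day 0 and 115 at day 4. Map2 was 2.76-fold and Dpysl5 6.67-fold higher. Outside the list, Dpysl2 and Tubb4a ranked among the 20 highest genes, at 245 and 61.3 at day 0 and 2523 and 747 at day 4, in that order. Mapt, which encodes tau, read 48.3 at day 0 and 40.2 at day 4, and Stmn2 1517 at day 0 and 1156 at day 4. The heavy neurofilament gene Nefh was the lower member, with 199 at day 0 and 66.98 at day 4, whereas the light chain Nefl was 2.11-fold higher.

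Axon guidance genes gave 24 higher members and 1 lower of 55 (median 0.73). Among receptors, Plxna2 read 50.1 at day 0 and 558 at day 4, Epha7 49.8 at day 0 and 529.7 at day 4 and Robo2 34.6 at day 0 and 360.3 at day 4. Dcc, the netrin receptor, read 29.2 at day 0 and 265 at day 4, at least 6.39-fold higher. The ephrin ligands Efna5, Efnb3, Efnb1 and Efnb2 were 4.58-fold to 7.42-fold higher. All 3 Slit ligands were higher, by 4.02-fold for Slit1, 2.76-fold for Slit2 and 2.24-fold for Slit3. Netrin-1 (Ntn1) read 256 at day 0 and 494 at day 4. Epha2, an Eph receptor of stem cells, was the lower member, with 377 at day 0 and 83.8 at day 4, 4.499-fold lower.

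Genes of mature neurons and glia were read as 3 lists. In the neuron subtype list, 4 of 27 were higher and 0 lower (median 0.05); Isl1 read 47.97 at day 0 and 179 at day 4, while the motor neuron gene Mnx1 read 26.01 at day 0 and 26.6 at day 4. Among synapse and channel genes the counts were 4 and 0 of 34 (median 0.15). The nicotinic receptor subunit Chrna3 read 30.2 at day 0 and 427 at day 4, at least 10.3-fold higher, and Chrnb4, its partner subunit, 71.9 at day 0 and 225 at day 4. The vesicle-fusion gene Snap25 read 43.4 at day 0 and 233 at day 4, 5.36-fold higher, but Syn1 read 172 at day 0 and 152 at day 4, Syt1 44.9 at day 0 and 66.2 at day 4 and Gad1 73.8 at day 0 and 51.2 at day 4. Of 17 glial genes, 2 were higher, Olig2 and Sparcl1, and 0 lower. The astrocyte genes Gfap, Aqp4 and S100b stayed under 41.4 on both days, and Gfap read 37.4 at day 0 and 34.97 at day 4.

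Signals that oppose or direct neural fate were read by pathway. Nodal genes, which favour mesendoderm, were lower in 7 and higher in 2 of 15 cases (median -0.91). Nodal read 334 at day 0 and 88.6 at day 4 and its co-receptor Tdgf1 3163 at day 0 and 1064 at day 4, 3.77-fold and 2.97-fold lower. The antagonists Lefty1 and Lefty2 were 2.35-fold and 2.51-fold lower, while the receptor Acvr2a and the effector Smad3 were 3.29-fold and 3.25-fold higher. In the BMP list, 6 were higher and 2 lower of 25 (median 0.079). Bmp4, a ligand that blocks neural fate, read 1072 at day 0 and 95.7 at day 4, the largest negative difference among genes above 41.4 on both days. Bmp4 is also a member of the naive list. The inhibitor Smad7 read 354 at day 0 and 85.01 at day 4. The Id targets differed: Id2 read 155 at day 0 and 706 at day 4 and Id4 67.7 at day 0 and 269.7 at day 4, both higher, but Id1 read 175 at day 0 and 123 at day 4 and Id3 73.2 at day 0 and 91.6 at day 4.

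FGF and ERK genes gave 3 higher and 7 lower of 30 (median -0.032). The stem cell ligand Fgf4 read 436 at day 0 and 119 at day 4, 3.67-fold lower, and the neural ligand Fgf15 195 at day 0 and 938 at day 4, 4.81-fold higher, though a dimmer Fgf15 probe set read 41.9 and 53.7 on those days. The receptors Fgfr3 and Fgfr2 were at least 5.801-fold and 2.41-fold higher. Among genes that ERK switches on, Spry4 read 538 at day 0 and 77.5 at day 4, Egr1 308 at day 0 and 50.5 at day 4 and Etv5 989 at day 0 and 278 at day 4 (74.3 and 47.5 by its other probe set). Dusp6, another, read 606 at day 0 and 445 at day 4, within 2-fold. In the WNT list, 11 were higher and 2 lower of 44 (median 0.30). The receptors Fzd3 and Fzd2 read 52.6 and 49.8 at day 0 and 684 and 258 at day 4, in that order, while Fzd5 read 210.0 at day 0 and 70.2 at day 4, 2.99-fold lower. The secreted antagonists Sfrp1, Sfrp2 and Frzb were 7.17-fold, 8.79-fold and at least 9.83-fold higher, although another Sfrp2 probe set read 39.0 and 42.1. Wls, which ferries WNT ligands out of the cell, was 6.17-fold higher. Axin2, the general target of the pathway, read 129.8 at day 0 and 183 at day 4.

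As background, the neural plate is known to replace E-cadherin by N-cadherin as it leaves the surface epithelium. E-cadherin (Cdh1) read 1158 at day 0 and 371 at day 4, 3.13-fold lower, and P-cadherin (Cdh3) 466 at day 0 and 104 at day 4, 4.46-fold lower. N-cadherin (Cdh2) read 275 at day 0 and 2159 at day 4, 7.84-fold higher, with Cdh6 and Cdh11 7.79-fold and 4.35-fold higher. In the whole junction list, 6 were higher and 10 lower of 37 (median -0.15). The keratins Krt8 and Krt18 read 214 and 197 at day 0 and 73.6 and 70.3 at day 4, in that order. The epithelial transcription factors Grhl3 and Grhl2 and the splicing factors Esrp1 and Esrp2 were 4.38-fold, 3.13-fold, 2.21-fold and 2.26-fold lower, while Zeb1, a repressor of Cdh1, was 2.13-fold higher. The tight-junction gene Cldn4 read 322 at day 0 and 107 at day 4, and Ocln 80.2 at day 0 and 63.7 at day 4.

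Matrix genes carry the contacts of an epithelium with its basement membrane. Of 35 measured, 3 were higher and 6 lower (median -0.18). The 6 lower genes were basement membrane genes: the laminin chains Lama5, Lamb1 and Lamc1, the nidogens Nid1 and Nid2 and the proteoglycan Hspg2. Lamc1 read 764 at day 0 and 249.8 at day 4 and Nid2 1017 at day 0 and 323 at day 4, 3.06-fold and 3.14-fold lower. Lama1, the laminin chain of the early embryo, read 141 at day 0 and 191 at day 4, and Col4a1 73.8 at day 0 and 82.3 at day 4. The higher ones were Spon1, Ncan and Col2a1; the brain proteoglycan Ncan read 76.8 at day 0 and 242 at day 4, 3.14-fold higher.

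**Figure D4:**
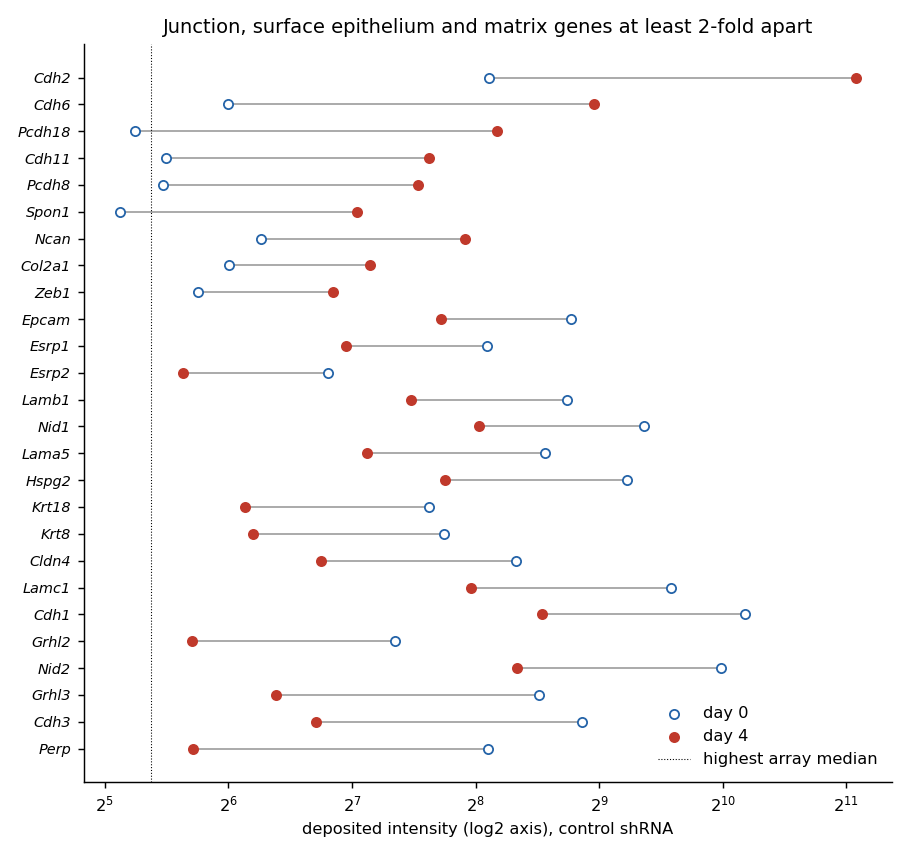
Deposited intensity (log2 axis) at day 0 (open) and day 4 (filled) of the 26 genes past 2-fold in the junction, epidermis and matrix lists, control shRNA cells, ordered by the difference. The 17 lower genes include E-cadherin, P-cadherin, keratins, laminins and nidogens, and the 9 higher genes include N-cadherin and Ncan.

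Markers of other cell types were read next. Of 24 mesoderm genes, 0 were higher and 1 lower; Mixl1 read 44.9 at day 0 and 39.9 at day 4, Mesp1 27.6 at day 0 and 26.1 at day 4 and Tbx6 48.7 at day 0 and 53.3 at day 4. The lower one, Tcf15, which naive-state exit also involves, read 598 at day 0 and 100.4 at day 4. Of 15 endoderm genes, 3 were higher (Cxcr4, Prox1 and Onecut1, which neural cells express too) and 1 lower; Sox17 read 43.3 at day 0 and 38.1 at day 4, and Gata6 30.6 at day 0 and 29.01 at day 4. Of 20 trophoblast genes, 1 was higher and 5 lower; Cdx2 read 43.6 at day 0 and 39.1 at day 4 and Elf5 28.96 at day 0 and 24.3 at day 4. Of 18 epidermis genes, 0 were higher and 9 lower, and Krt14 read 31.2 at day 0 and 28.1 at day 4. This list overlaps those read above, and its brightest member, with 1158 at day 0 and 371 at day 4, was Cdh1. The junction, matrix and epidermis lists together held 17 different lower genes, fewer than their separate counts of 10, 6 and 9 would give. Of 19 neural crest genes, 4 were higher (Ednrb and Sox9, also in the progenitor list, Pax3, also in the dorsal list, and Cdh6, also in the junction list) and 3 lower; Sox10 read 40.3 at day 0 and 39.8 at day 4 and Tfap2a 29.6 at day 0 and 34.9 at day 4.

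The remaining marker lists were counted in the same way. Neuromesodermal genes, which mark trunk progenitors, gave 1 higher of 13. Cdx1 read 47.6 at day 0 and 33.6 at day 4 and Nkx1-2 39.8 at day 0 and 46.2 at day 4. Primitive endoderm gave 1 higher and 3 lower of 25; the higher one, Plat, read 55.05 at day 0 and 276 at day 4. Fibroblast genes, checked because stem cells are often grown on feeders, gave 1 higher, Mmp2 with 70.5 at day 0 and 283 at day 4, and 0 lower of 18. Col1a1 read 95.6 at day 0 and 60.8 at day 4. Blood and endothelial genes gave 1 higher, Cdh5, and 1 lower, Pecam1, of 16; Ptprc, the pan-leukocyte gene, read 21.9 at day 0 and 21.8 at day 4. Summed over all measured members, the intensities of day 0 and day 4 were 1744 and 1123 for mesoderm, 2923 and 2576 for endoderm, 2617 and 2394 for primitive endoderm, 2152 and 1901 for trophoblast, and 4085 and 1584 for epidermis. They were 1618 and 1754 for fibroblasts, 1063 and 863 for blood and endothelium, 1448 and 2668 for neural crest, and 4096 and 18306 for neural progenitors. Single bright members weigh heavily in these sums. The highest single intensity at day 0 and at day 4 was 2237 and 939.5 in endoderm and 598 and 100.4 in mesoderm. It was 418 and 131 in blood and endothelium and 269 and 706 in trophoblast, where these values belong to different genes. The sums therefore do not show how most members of a list differed. The part of other cell types in the results was not tested.

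Chromatin regulators were next. Of 16 DNA methylation genes, 1 was higher and 5 lower (median -0.28). Tet1, which oxidizes methylcytosine, read 1923 at day 0 and 373 at day 4, 5.16-fold lower, and Tet2 607 at day 0 and 213 at day 4, while Tet3 read 56.5 at day 0 and 108 at day 4. Dnmt3l, the cofactor of de novo methylation, read 559 at day 0 and 70.9 at day 4. The methyltransferases themselves lay within 2-fold: Dnmt1 read 808 at day 0 and 837 at day 4, Dnmt3a 156 at day 0 and 161 at day 4 and Dnmt3b 827 at day 0 and 591 at day 4. Zfp57, which guards imprints, was 2.59-fold lower.

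Subunits of chromatin complexes were counted by complex. In the BAF list, 3 were higher and 0 lower of 26 (median 0.28). Smarcc2, the paralog that joins the complex as stem cells differentiate, read 154 at day 0 and 373 at day 4, 2.42-fold higher, and Smarcc1, its stem cell counterpart, 1392 at day 0 and 1409.7 at day 4. The neuronal subunit gene Actl6b read 32.9 at day 0 and 33.2 at day 4. In the Polycomb list, 1 was higher and 3 lower of 30 (median -0.079). Yaf2, a subunit of variant Polycomb complexes, read 88.7 at day 0 and 492 at day 4, 5.55-fold higher. Phc1, L3mbtl2 and Eed were 2.74-fold, 2.801-fold and 2.32-fold lower, while Ezh2 read 988 at day 0 and 1120.3 at day 4. Of 17 genes of the NuRD deacetylase complex, whose subunits the other arrays targeted, 1 was higher and 0 lower. That gene was Chd3, with 94.3 at day 0 and 418 at day 4, 4.44-fold higher; in the same control cells Chd4 read 973 at day 0 and 1021 at day 4 and Mbd3 216 at day 0 and 183 at day 4.

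Core cell cycle genes lay within 2-fold, while some of their regulators did not. Of 38 replication and mitosis genes, 0 were higher and 0 lower. Mki67, a marker of cycling cells, read 892 at day 0 and 1133 at day 4 and Pcna 1536 at day 0 and 1532 at day 4. Of 23 cyclin and inhibitor genes, 4 were higher and 2 lower (median 0.19). Ccnd2, the D cyclin of neural progenitors, read 306 at day 0 and 1858 at day 4, 6.06-fold higher, while Ccnd3 and Ccne1 were 2.06-fold and 2.25-fold lower. The inhibitors Cdkn1c and Cdkn1b read 76.3 and 98.1 at day 0 and 282 and 236 at day 4, in that order. In the MYC network, Myc read 475 at day 0 and 152 at day 4, 3.12-fold lower, Mycn 249 at day 0 and 212 at day 4 and Mycl 50.5 at day 0 and 166 at day 4. In the list of Lin28 and its partners, Hmga2, a target of let-7 microRNAs, read 107 at day 0 and 829.5 at day 4, 7.78-fold higher, and the mRNA-binding gene Igf2bp3 609 at day 0 and 2030.1 at day 4.

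Metabolic lists differed in direction. Of 30 glycolysis and hypoxia genes, 7 were higher and 1 lower (median 0.43). The oxygen sensor Egln1 read 129 at day 0 and 594 at day 4, 4.61-fold higher, and Vegfa 129 at day 0 and 354 at day 4, 2.74-fold higher, while the glycolytic enzymes Ldha and Hk2 read 172 and 307 at day 0 and 226 and 228 at day 4, in that order. Oxygen in the aggregates was not recorded in the labels. Of 27 cholesterol and fatty acid genes, 9 were higher and 0 lower (median 0.73). Fads1 and Fads2, the desaturases of long-chain fatty acids, read 267 and 429 at day 0 and 951 and 1447 at day 4, in that order, and the sterol enzyme Cyp51 was 2.75-fold higher. In the list of mitochondrial, one-carbon and amino acid genes, 0 were higher and 3 lower of 20. The amino acid transporter gene Slc7a7 read 1576 at day 0 and 287 at day 4 and Slc7a3 749.6 at day 0 and 193 at day 4, 5.498-fold and 3.88-fold lower. In the integrated stress response list, 2 were higher and 1 lower of 23. Its factors Atf4 and Ddit3 read 233 and 54.2 at day 0 and 184 and 80.6 at day 4, in that order. Among 21 housekeeping genes, 1 was past 2-fold: B2m, the light chain of MHC class I, with 207 at day 0 and 652 at day 4.

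Imprinted genes, expressed from 1 parental copy, were higher in 8 and lower in 3 of 36 cases (median 0.31). Grb10, an adaptor that restrains growth factor receptors, read 259.8 at day 0 and 1642 at day 4, 6.32-fold higher, and Sgce and Dlk1 were 4.24-fold and 3.13-fold higher. Phlda2 read 338 at day 0 and 82.8 at day 4, 4.08-fold lower. Meg3, the noncoding neighbour of Dlk1, read 42.05 at day 0 and 37.5 at day 4. Of 25 germline genes, 7 were lower and 1 higher (median -0.68): Dazl read 113 at day 0 and 49.5 at day 4 and the higher one, Tdrkh, 30.2 at day 0 and 162 at day 4. Genes of the embryo's first cleavage stage were lower in 3 of 15 cases. Zscan4e read 284 at day 0 and 108 at day 4; the Zscan4 copies share sequence, so their probe sets may read one another.

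MicroRNA probe sets on this array read the precursor or its primary transcript, not the mature strand. Of 479 microRNA genes measured, 159 entered, 7 were higher and 8 lower. Of these, 8 were also past 2-fold against the 41.4 floor, 2 higher and 6 lower. Mir290a, of the cluster that dominates stem cell microRNAs, read 445 at day 0 and 87.8 at day 4, 5.07-fold lower. Mir219a-2, from a family known from neural and oligodendrocyte development, read 56.3 at day 0 and 167 at day 4, and Mir18b 41.6 at day 0 and 113 at day 4. Of the 8, 4 had mature sequences in the RefSeq table (build GRCm38.p6). The 4 strands below, from the named 3, are shown for their seeds, bases 2 to 8 in capitals, which pair with targets; no seed is shared between them.

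mmu-miR-290a-5p: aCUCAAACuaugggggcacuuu
mmu-miR-290a-3p: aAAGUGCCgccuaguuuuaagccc
mmu-miR-219a-5p: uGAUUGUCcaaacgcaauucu
mmu-miR-18b-5p: uAAGGUGCaucuagugcuguuag

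Of 38 microRNA genes in the neural list, 24 were under 41.4 on both days, as were 12 of 20 in the stem cell list. Mir302c read 19.6 at day 0 and 53.3 at day 4, Mir9-2 18.9 at day 0 and 33.9 at day 4 and Mir124a-2 52.9 at day 0 and 42.8 at day 4, whereas the host transcript Mir124-2hg read 26.5 at day 0 and 175 at day 4, at least 4.23-fold higher. Of the 6 lower genes, 4 were Mir669 genes, which lie inside the imprinted Polycomb gene Sfmbt2: all 11 measured Mir669 genes do so in RefSeq. Of the 11, 7 entered and 5 were lower. Mir669j read 454 at day 0 and 191 at day 4 and Sfmbt2 itself 570.0 at day 0 and 199 at day 4, 2.86-fold lower. These precursors are similar copies, so the values are not independent of each other.

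Large gene families were counted by name. Where a count is out of genes that entered, the background is 8.13% higher and 4.70% lower over all genes that entered. Of 1105 olfactory receptor genes, 47 entered and 0 were higher and 0 lower, and of 289 vomeronasal receptor genes none was past 2-fold, with 9 entered. Ribosomal protein genes gave 0 higher and 2 lower of 63. Of 370 zinc-finger genes with Zfp names, 327 entered, 39 were higher and 19 lower. Of 35 protocadherins, adhesion proteins that give neurons their identity, 15 entered and 9 were higher, 6 of them in the beta cluster. Pcdhb22 read 23.999 at day 0 and 67.6 at day 4; the beta genes are similar in sequence, and their folds against the floor were under 2. Solute carriers were lower in 24 and higher in 12 of 234 that entered.

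Some of these genes are neighbours in the genome. Ordering the genes that entered by their RefSeq position gave 37 runs of 3 or more neighbours all past 2-fold in the same direction, 21 of higher and 16 of lower genes. On chromosome 16, Dppa4, Dppa2 and Morc1, which encodes a germline silencing ATPase, followed each other with log2 differences of -2.61, -3.05 and -3.12. On chromosome 6, Gdf3, Dppa3 and Nanog stood at -2.05, -1.25 and -1.59. On chromosome 8, Triml1, Triml2 and Zfp42 stood at -2.27, -2.41 and -2.64. The noncoding gene AU018091, Mir290a and Myadm were a run on chromosome 7. On chromosome 4 the zinc-finger genes Zfp600, Zfp992, Zfp981 and Rex2, with Gm21082 between them, were all lower, by log2 differences of -1.97 for Zfp992 to -1.41 for Zfp600; these copies are similar in sequence. Among higher runs, Hoxb3, Hoxb2 and Hoxb1 stood on chromosome 11, and on chromosome 1 the noncoding Pantr1 and 2900092D14Rik flanked Pou3f3, at 2.00, 3.92 and 2.53.

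The same step was read in the knockdown lines, each from its own arrays. The differences between lines have no test. In Chd4-knockdown cells Chd4 read 289.6 at day 0 and 727 at day 4, and in Mbd3-knockdown cells Mbd3 read 92.8 at day 0 and 138 at day 4. The control readings of both genes stand above with the NuRD genes. Each targeted gene read lower than in control on both days, and nearer to control at day 4 than at day 0. Between day 0 and day 4, 2.86% of genes were past 2-fold in Chd4-knockdown cells, 1.70% higher and 1.16% lower. In Mbd3-knockdown cells 2.70% were, 1.60% higher and 1.10% lower. Of the 1125 higher genes of control cells, 62 (5.51%) were also higher in Chd4-knockdown cells and 138 (12.3%) in Mbd3-knockdown cells; these were 27.2% and 64.8% of the higher genes of those lines. Of the 650 lower genes, 56 (8.62%) and 95 (14.6%) were also lower, 36.1% and 64.6% of the lower genes of those lines. Sox1 had log2 differences of 4.47 in control, 2.12 in Chd4-knockdown and 3.25 in Mbd3-knockdown cells. For Dbx1 the values were 4.07, -0.032 and 0.29, for Hes5 2.89, 0.20 and -0.10, and for Hoxb2 4.03, 0.49 and 0.59. Lower genes also differed in order: Bcl3 had -2.96, -2.59 and -2.29, but Dppa2 -3.05, 0.17 and -0.15. In medians, the naive list stood at -1.87, -0.49 and -0.68, the ventral tube list at 1.76, 0.029 and 0.073, and the primed list at 0.64, 0.57 and 1.02.

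**Figure D5:**
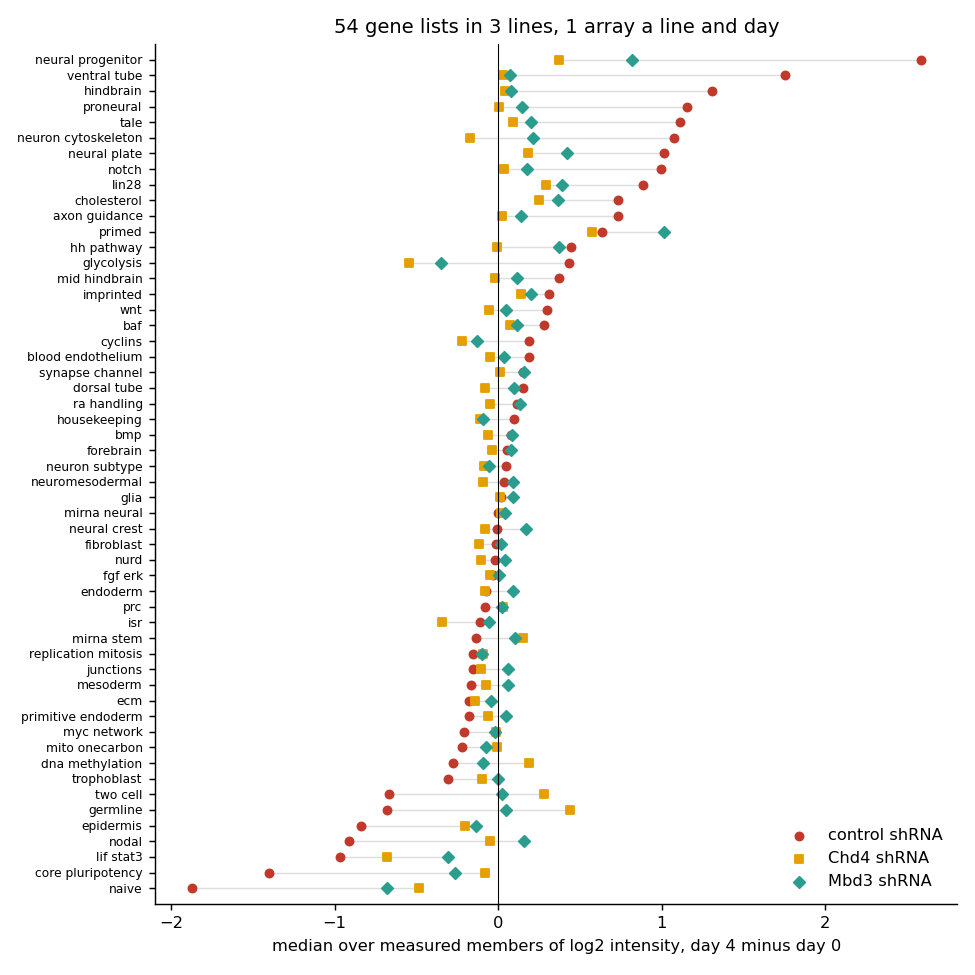
Median log2 intensity, day 4 minus day 0, over the measured members of 54 gene lists, in control (circles), Chd4 (squares) and Mbd3 (diamonds) shRNA cells, 1 array for each line and day. In control cells the medians run from -1.87 (naive) to 2.59 (neural progenitor), and 41 of 54 medians are nearer to 0 in each knockdown line than in control.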

How the data were processed

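Total RNA of 6 groups, 1 array each, was read on Mouse Gene 2.0 ST arrays. Deposited values are probe set intensities on a linear scale, made by the authors with GeneSpring GX 12.6.1, per the labels and series design, with RMA named in the submitters' processing notes. No source used here names the genome build of the deposited annotation. Differences are log2 of these deposited intensities, day 4 minus day 0, with no further normalization, computed with Python 3.11.15, numpy 2.4.6 and pandas 2.3.3 and plotted with matplotlib 3.10.9. Of 34351 probe sets, 1814 with several symbols and 9016 with none were set aside. For the 1082 genes with several probe sets the brightest was used, as a mean over the 6 arrays. Genes were named from 54 lists (1208 symbols, 1097 matched) and 15 families: marked members, those past 2-fold and those farthest in each direction, besides the 20 largest differences each way. The members and lists were chosen with earlier results of these data known. The counting was tested on simulated data. Sequences come from RefSeq tables.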

Additional observations from a re-analysis of the deposited data

Results flagged for a closer look

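Of the 1775 genes past 2-fold in control cells, 28 were past 2-fold the other way in a knockdown line, also against the 41.4 floor. Over all genes that entered, 1.70% were higher and 1.16% lower in Chd4-knockdown cells. In Mbd3-knockdown cells these shares were 1.60% and 1.10%. Whether opposite calls exceed these shares was not tested. With 1 array for each line and day, no difference between lines was tested. Values are log2 differences, day 4 minus day 0, in the knockdown line and then in control.

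Germline and imprinted genes were among them. Dazl, an RNA-binding gene of germ cells, stood at 3.06 in Chd4-knockdown and 2.44 in Mbd3-knockdown cells against -1.19 in control. Sfmbt2 stood at 1.10 in Chd4-knockdown cells against -1.52, and Mir669g, Mir669i, Mir669j and Mir669k, which lie inside it, at 1.55, 1.10, 1.36 and 1.22 against -1.13, -1.46, -1.25 and -1.11. Pramel19 stood at 1.44 against -1.30.

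Genes often used as hypoxia markers stood the other way, higher in control. In Chd4-knockdown cells Vegfa had -1.26 against 1.46 and Bnip3 -1.39 against 1.22. Ndufa4l2 had -1.71 in Chd4-knockdown and -1.19 in Mbd3-knockdown cells against 1.44. The cycle inhibitor Cdkn1b had -1.06 against 1.27 and Dap -1.08 against 1.43 in Chd4-knockdown cells. The small noncoding RNAs Rny1 and Rny3 had -1.04 and -1.76 against 1.32 and 1.35.

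Epas1, which encodes a hypoxia-inducible factor subunit, had 1.21 in Chd4-knockdown cells against -2.58. The folate receptor gene Folr1 had 1.31 against -2.26, and the peptidase gene Dpp4 had 1.42 against -1.93. The other genes in Chd4-knockdown cells were Arl14epl at 1.60 against -1.48, Aim2 at 1.15 against -1.38, Mup6 at 1.22 against -1.36, Enpp3 at 1.28 against -1.18, Clgn at 1.04 against -1.08, Slc5a11 at 1.07 against -1.07 and Gk5 at 1.04 against -1.004. In Mbd3-knockdown cells, Cd80 had 1.54 against -1.66, Zfp981 1.56 against -1.77, Bnc2 1.11 against -1.59 and Lrrc15 1.21 against -1.15.

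Probe sets set aside for their annotation also differed between the days in control cells. Of 2868 that entered with no symbol, 227 were past 2-fold, 130 higher and 97 lower. Of 1087 that entered with several symbols, 83 were past 2-fold, 55 higher and 28 lower.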

How the results depend on the processing

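With 1 array a group, no replicate could be left out. No paired analysis was possible because each group has 1 array and no test was made. Raising the threshold to 3-fold left 474 higher and 252 lower genes. Under the 8 other settings the counts ran from 1013 to 1571 higher and from 582 to 930 lower, the largest with 16 subtracted from each intensity before log2. Of 395 day differences recomputed in control cells, 51 moved by 1.5 times or more under some alternative, 43 of them with 16 subtracted. The sign changed for 17, each within 0.22 of 0 in log2 at the outset. Of 69 list medians, 22 moved, all 22 with the stricter filter, which takes the median over passing members only. The sign changed for 15 medians, each within 0.19 of 0 at the outset, 9 of them under that filter. There the endoderm median went from -0.072 to 1.09 over 6 genes and the neural crest median from -0.0038 to 0.72 over 10. Centring each array on its median, a shift of -0.063 in log2 between the days, gave 1262 higher and 582 lower. Genes near the array median have the least certain folds, since signal there lies close to background. Against the 41.4 floor, 1043 genes stayed higher and 621 lower.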

Other observations

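By chromosome, the X chromosome had the largest share of higher genes among the numbered and sex chromosomes, 12.7% of 464 that entered, and chromosome 7 the largest share of lower genes, 6.45% of 1117. Over all genes that entered these shares were 8.13% and 4.70%, and no difference between chromosomes was tested. Genes read by several probe sets give a measure of agreement within an array. Over 385 genes with at least 2 bright probe sets, the day difference ranged over a median of 0.25 in log2 between probe sets of a gene. Of 50 such genes with a probe set past 2-fold, 42 had all on the same side of 0. The same side does not mean a like size: the Hes5 probe sets, counted here, had log2 differences of 2.89 and 0.27. Only probe sets bright on both days were counted, so pairs with a dim one, such as those of Dll1 and Irx3, were left out.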
